A study of Homo sapiens with 11 samples.

Results

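ATF4 and ER stress response genes were examined in human cancer cells that received a miR-365a-3p mimic. The set holds 10 genes chosen by name, with earlier results of these data known, out of 31325 gene symbols measured on the arrays. They are ATF4, ATF3, DDIT3, DDIT4, ASNS, TRIB3, SESN2, HERPUD1, XBP1 and PPP1R15A. All 10 had a value on every array.

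mRNA was measured in MDA-MB-231 cells, a mesenchymal-like line from a breast carcinoma, and in SKOV3 cells, an ovarian carcinoma line that the study calls SKOV3.ip1. Both were transfected with a mimic of miR-365a-3p or with a control miRNA, which gave 4 groups on 11 Illumina arrays: 3 arrays of MDA-MB-231 miR-365a-3p, 3 of MDA-MB-231 control, 3 of SKOV3 miR-365a-3p and 2 of SKOV3 control. The sample labels give 48 hours of treatment, whereas the design text of the series gives 24 hours. Neither gives the dose on the arrays or the sequence of the control miRNA, there is no untransfected group, each cell type is represented by 1 line, and no source says that the arrays of a group came from separate cultures, so the p-values may measure technical spread.

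When unfolded proteins collect in the endoplasmic reticulum (ER), or when amino acids run short, kinases phosphorylate the translation factor eIF2. Most translation then slows, while the mRNA of the transcription factor ATF4 is translated more, and ATF4 switches on genes of amino acid supply, redox balance and, under lasting stress, cell death. This branch is the integrated stress response. The other branches of the unfolded protein response run through the ER sensors IRE1, which splices the XBP1 mRNA, and ATF6, and they raise chaperones and the machinery that removes misfolded proteins from the ER. ATF4 protein, eIF2 phosphorylation and the spliced form of XBP1 were not measured by these values.

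The miRNA is shown because its mimic is the agent tested, and the promoters of 4 members because they hold letters of known stress response elements. The mature miRNA is encoded at chr16:14309340-14309361 on the plus strand of GRCh38.p14 (RefSeq), and miR-365b-3p from chr17:31575478-31575499 has the same mature sequence. The seed, bases 2 to 8, is in capitals.
hsa-miR-365a-3p: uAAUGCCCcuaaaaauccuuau

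Promoter windows from RefSeq, 250 bases before to 50 after each start, were found for all 10 members, 17 windows in all because some genes have several starts. They were searched on both strands for TGATGNAA (the C/EBP-ATF composite element that ATF4 binds with a C/EBP partner), TGACGTCA (the cAMP response element, CRE), TGACGTGG (the unfolded protein response element) and CCAAT with CCACG 9 bases after it (the ER stress response element, ERSE). A variant, ATTGG with CCACG 1 base after it (ERSE-II), was added after the letters of the HERPUD1 window had been seen. The composite element lay in 3.62% of all 35116 promoter windows, the CRE in 1.85%, the unfolded protein response element in 0.729%, ERSE in 0.0769% and ERSE-II in 0.0541%. In 5 members at least 1 window held a motif. The 4 members with a motif that fell in MDA-MB-231 cells are printed 5′ to 3′ on the gene's strand for the 200 bases before the start, with the motif in capitals.
ASNS, minus strand, chr7:97872409-97872608: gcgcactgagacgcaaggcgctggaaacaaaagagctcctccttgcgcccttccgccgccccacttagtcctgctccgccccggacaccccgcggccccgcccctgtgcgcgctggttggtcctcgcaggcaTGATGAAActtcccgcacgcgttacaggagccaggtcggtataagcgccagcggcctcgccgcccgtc
PPP1R15A, plus strand, chr19:48872221-48872420: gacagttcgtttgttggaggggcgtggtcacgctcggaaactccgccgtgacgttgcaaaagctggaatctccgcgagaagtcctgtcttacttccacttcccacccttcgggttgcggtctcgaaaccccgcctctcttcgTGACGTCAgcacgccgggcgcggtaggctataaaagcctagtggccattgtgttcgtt
XBP1, minus strand, chr22:28800570-28800769: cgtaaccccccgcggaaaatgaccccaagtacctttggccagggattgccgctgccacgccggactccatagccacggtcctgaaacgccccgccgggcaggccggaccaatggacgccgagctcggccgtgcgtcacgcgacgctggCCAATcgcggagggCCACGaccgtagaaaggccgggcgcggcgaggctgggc
HERPUD1, plus strand, chr16:56931942-56932141: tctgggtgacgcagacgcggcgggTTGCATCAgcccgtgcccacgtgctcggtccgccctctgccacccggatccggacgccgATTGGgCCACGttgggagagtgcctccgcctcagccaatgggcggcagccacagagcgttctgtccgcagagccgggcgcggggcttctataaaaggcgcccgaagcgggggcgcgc

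The composite element of ASNS began 68 bases before the start, the CRE of PPP1R15A 58 bases before and the ERSE of XBP1 52 bases before. The HERPUD1 window held ERSE-II 117 bases before the start and a composite element on the opposite strand 176 bases before. ATF3 held a composite element 191 bases before 1 of its starts. These matches describe letters, and no binding was measured.

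In MDA-MB-231 cells with the mimic, HERPUD1 (an ER membrane protein of ER-associated degradation), PPP1R15A (the stress-induced subunit that directs a phosphatase to eIF2), TRIB3 (a pseudokinase induced by ATF4), ASNS (asparagine synthetase) and XBP1 (the transcription factor of the IRE1 branch) fell, by 1.57-fold to 2.17-fold. ATF3, a stress-induced repressor, rose by 0.22 on the log2 scale from a signal near the bottom of the arrays. In SKOV3 cells HERPUD1 fell by 2.20-fold and DDIT4, an inhibitor of mTORC1, by 0.45 on the log2 scale. There the effects on ASNS, TRIB3 and PPP1R15A passed no test. ATF4 mRNA passed no test in either line.

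Thus 5 of the 10 members fell and 1 rose in MDA-MB-231 cells at a limma adjusted p under 0.05, and the background was broad, since 11.7% of all genes fell and 14.4% rose. In SKOV3 cells 2 of 10 fell and 0 rose, against 7.11% and 7.25% of all genes. The median log2 fold change of the 10 members was -0.37 for MDA-MB-231 and -0.0011 for SKOV3, against 0.0064 and 0.0066 for all genes. Bright genes were called more often than dim ones. Of the 6853 genes with a mean normalized signal above 8 (log2), 26.2% fell and 39.0% rose in MDA-MB-231 cells, and 15.3% and 23.4% in SKOV3 cells. Among the 8 members in that class, all but ATF3 and SESN2, 5 fell in MDA-MB-231 and 2 in SKOV3 cells, and none rose. The members were chosen with earlier results of these data known, so an excess over these shares is no independent support.

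**Figure D1:**
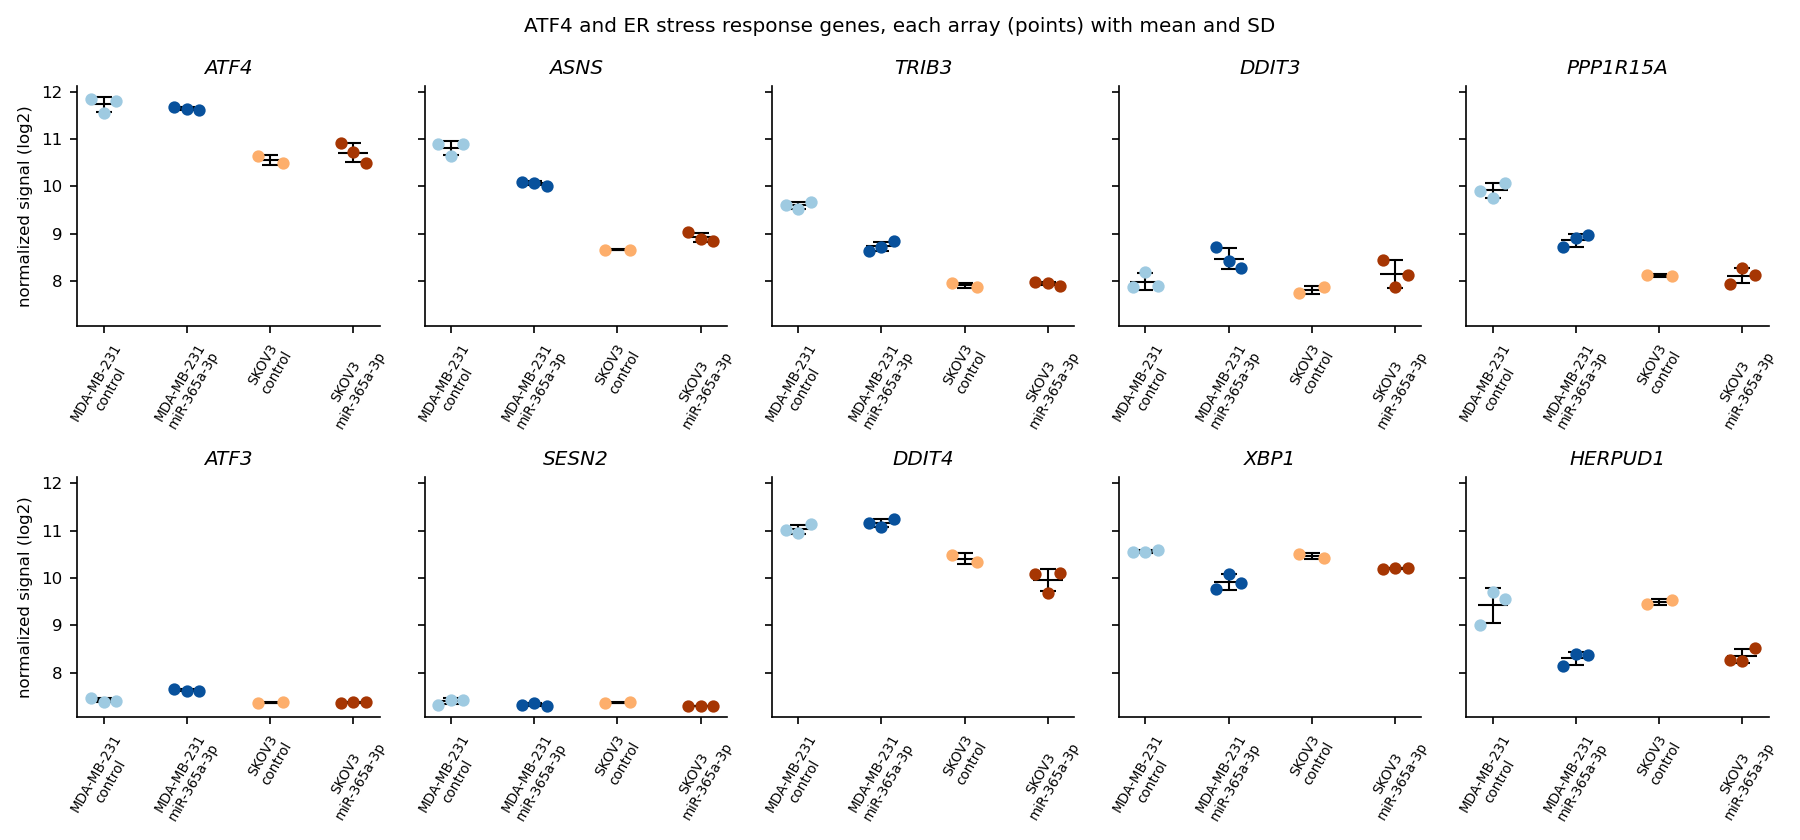
Normalized signal (log2, vertical axis) of each of the 10 genes on each of the 11 arrays (points), with the group mean and SD (black), in the 4 groups (horizontal axis). HERPUD1 is lower with the mimic in both lines, ASNS, TRIB3 and PPP1R15A are lower with it in MDA-MB-231 cells, and ATF3 and SESN2 lie at the bottom of the scale in every group.

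The labels of the lines were checked by marker genes. Of 6 markers of SKOV3, ERBB2, EPCAM and KRT19 were higher on every SKOV3 array than on every MDA-MB-231 array. None of 5 genes listed for MDA-MB-231 separated the lines that way: VIM and CAV1 were high in both (VIM 12.6 to 13.9), and SPARC was higher in SKOV3 cells. On the deposited values the 75th percentile of all genes was lower with the mimic, 7.62 against 7.91 in MDA-MB-231 and 7.74 against 8.01 in SKOV3 cells, and the 99th percentile was higher, 12.56 against 12.30 and 12.44 against 12.26. All values below come after quantile normalization across the 11 arrays, and the plot of the 4 scalings gives the members' effects on the other scales. The part of the shifted percentiles in the results was not tested beyond these scalings. The arrays read bulk RNA, so fewer expressing cells and less RNA per cell cannot be told apart.

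ATF4 (chr22:39520559-39522686) is the effector of the integrated stress response. Its normalized signal was 11.85, 11.56 and 11.80 on the MDA-MB-231 control arrays and 11.68, 11.63 and 11.62 with the mimic. It was 10.63 and 10.49 on the SKOV3 control arrays and 10.91, 10.73 and 10.50 with the mimic. Treated and control arrays overlapped in both lines, and every SKOV3 array lay below every MDA-MB-231 array. The effect of the mimic was -0.09 ± 0.11 (SE; limma adjusted p = 0.657) in MDA-MB-231 and 0.16 ± 0.12 (adjusted p = 0.555) in SKOV3 cells. The 95% interval ran from -0.34 to 0.15 in the first and from -0.12 to 0.43 in the second. The sign in MDA-MB-231 cells turned on the deposited values, at 0.048.

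ASNS (chr7:97851677-97928441) makes asparagine from aspartate and glutamine and is a standard ATF4 target. It read 10.90, 10.64 and 10.90 on the MDA-MB-231 controls and 10.09, 10.08 and 10.02 with the mimic. On SKOV3 arrays it read 8.67 and 8.66 in controls and 9.03, 8.90 and 8.85 with the mimic. On these normalized values the groups did not overlap in either line, and they stood apart in opposite directions. The SKOV3 groups overlapped on the deposited values, with 8.94 and 8.84 in controls and 8.94, 8.90 and 8.90 with the mimic. ASNS fell by 0.75 ± 0.073 in MDA-MB-231 cells (SE; limma adjusted p = 0.000152). In SKOV3 cells the value was 0.26 ± 0.081 (adjusted p = 0.0665), and it was 0.022 on the deposited values and 0.089 under cyclic loess (adjusted p = 0.578). The test of the difference between the lines gave 1.01 (adjusted p = 0.00235), a call that was lost with replicate number as a block within each line (adjusted p = 0.0669).

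TRIB3 (chr20:380760-397559) binds ATF4 and AKT and feeds back on the stress response. It read 9.60, 9.52 and 9.68 on the MDA-MB-231 controls and 8.64, 8.72 and 8.84 with the mimic. SKOV3 arrays read 7.96 and 7.88 in controls and 7.97, 7.97 and 7.90 with the mimic. The MDA-MB-231 groups were well apart, and the SKOV3 groups overlapped at a level below every MDA-MB-231 array. TRIB3 fell by 0.87 ± 0.058 in MDA-MB-231 cells (SE; limma adjusted p = 2.39e-05), the smallest adjusted p among the members. In SKOV3 cells the value was 0.03 ± 0.064 (adjusted p = 0.879), and its sign depended on the scaling, with -0.26 on the deposited values. The effects of the lines differed by 0.90 (adjusted p = 0.00137). A fall of 0.87 from the SKOV3 control mean of 7.92 would end below the array medians of 7.35 to 7.41. Whether this low signal limited the fall that could be read in SKOV3 cells was not tested.

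PPP1R15A (GADD34, chr19:48872421-48876058) ends the translational block by guiding a phosphatase to eIF2. It read 9.91, 9.76 and 10.08 on the MDA-MB-231 controls and 8.72, 8.90 and 8.97 with the mimic. In SKOV3 cells it read 8.14 and 8.10 in controls and 7.95, 8.27 and 8.12 with the mimic. Here too the MDA-MB-231 groups did not overlap, while the SKOV3 groups did. It fell by 1.05 ± 0.10 in MDA-MB-231 cells (SE; limma adjusted p = 0.00016) and gave -0.0042 ± 0.12 in SKOV3 cells (adjusted p = 0.993), where it was -0.30 on the deposited values (adjusted p = 0.284) and -0.26 under median centring (adjusted p = 0.310). The effects differed by 1.05 (adjusted p = 0.00995), and by 1.08 without SKOV3 control replicate 1 and 1.04 without replicate 2. With replicate number as a block within each line the call was lost (limma adjusted p = 0.108). Here too a fall of 1.05 from the SKOV3 control mean of 8.12 would end below the array medians of 7.35 to 7.41, a limit that was not tested.

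DDIT3 (CHOP, chr12:57516588-57520517), a pro-apoptotic factor downstream of ATF4, read 7.88, 8.19 and 7.90 on the MDA-MB-231 controls and 8.72, 8.42 and 8.28 with the mimic. It read 7.75 and 7.88 in SKOV3 controls and 8.46, 7.88 and 8.13 with the mimic. Treated arrays were above control arrays in MDA-MB-231 cells, and the groups overlapped in SKOV3 cells. The values were 0.48 ± 0.16 (SE; limma adjusted p = 0.0614) and 0.34 ± 0.18 (adjusted p = 0.318). On the deposited values the effects were 0.11 and 0.071, and the MDA-MB-231 value passed the threshold in 6 of 19 alternatives. DDIT3 thus had a positive value, not called, in the line where ASNS, TRIB3 and PPP1R15A fell.

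ATF3 (chr1:212565407-212620777) and SESN2 (chr1:28259518-28282491), a sestrin that restrains mTORC1, gave signals close to the array medians of 7.35 to 7.41 where most genes of the arrays lie. ATF3 ranged from 7.39 to 7.46 on MDA-MB-231 controls and from 7.62 to 7.66 with the mimic, and from 7.35 to 7.39 on all SKOV3 arrays. Its rise of 0.22 ± 0.024 in MDA-MB-231 cells (SE; limma adjusted p = 0.000331) came down to 0.065 (adjusted p = 0.0530) on the deposited values. The difference between the lines was -0.21 (adjusted p = 0.0207), and it was lost on the deposited values (adjusted p = 0.213), under median centring (0.295) and under cyclic loess (0.397). SESN2 stayed between 7.29 and 7.43 on all arrays, with -0.07 in both lines (adjusted p = 0.175 and 0.295).

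DDIT4 (REDD1, chr10:72273924-72276036) read from 10.94 to 11.14 on the 3 MDA-MB-231 controls and 11.15, 11.07 and 11.24 with the mimic. In SKOV3 cells it read 10.48 and 10.33 in controls and 10.07, 9.68 and 10.11 with the mimic. The MDA-MB-231 groups overlapped, and all treated SKOV3 arrays were below both controls. Its value was 0.13 ± 0.11 in MDA-MB-231 cells (limma adjusted p = 0.529), and it fell by 0.45 ± 0.13 in SKOV3 cells (SE; adjusted p = 0.0442). That call was lost without any 1 of the 6 MDA-MB-231 arrays (adjusted p = 0.0558 to 0.0650), without SKOV3 control replicate 1 (0.269) or 2 (0.125), and with SKOV3 fitted alone (0.181). The difference between the lines was -0.58 (adjusted p = 0.149).

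XBP1 (chr22:28794560-28800569) read 10.55, 10.55 and 10.60 on the MDA-MB-231 controls and 9.76, 10.09 and 9.90 with the mimic. In SKOV3 cells it read 10.51 and 10.42 in controls and 10.19, 10.21 and 10.20 with the mimic. In each line every treated array lay below every control array. XBP1 fell by 0.65 ± 0.070 in MDA-MB-231 cells (SE; limma adjusted p = 0.000262), and the value was -0.27 ± 0.079 in SKOV3 cells (adjusted p = 0.0552). In SKOV3 cells it passed the threshold in 6 of 19 alternatives, among them cyclic loess (adjusted p = 0.0400), and not on the deposited values (0.169), under median centring (0.212) or with the intensity trend (0.312). The difference of 0.38 between the lines did not pass (adjusted p = 0.131).

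HERPUD1 (chr16:56932142-56944864) is a scaffold of the ER ubiquitin ligase complex and responds to both the ATF4 and the ATF6 branch. It read 9.01, 9.69 and 9.56 on the MDA-MB-231 controls and 8.13, 8.39 and 8.37 with the mimic. On SKOV3 arrays it read 9.44 and 9.53 in controls and 8.27, 8.25 and 8.51 with the mimic. The groups were apart in both lines, and the 2 control groups lay in the same range. HERPUD1 fell in both lines, with -1.12 ± 0.17 (SE; limma adjusted p = 0.00131) in MDA-MB-231 and -1.14 ± 0.19 (adjusted p = 0.00427) in SKOV3 cells. The difference was -0.02, with a 95% interval from -0.59 to 0.55, and it is the one member called in both lines. Both calls were kept under every alternative, with adjusted p up to 0.00987 in MDA-MB-231 and up to 0.0483 in SKOV3 cells.

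**Figure D2:**
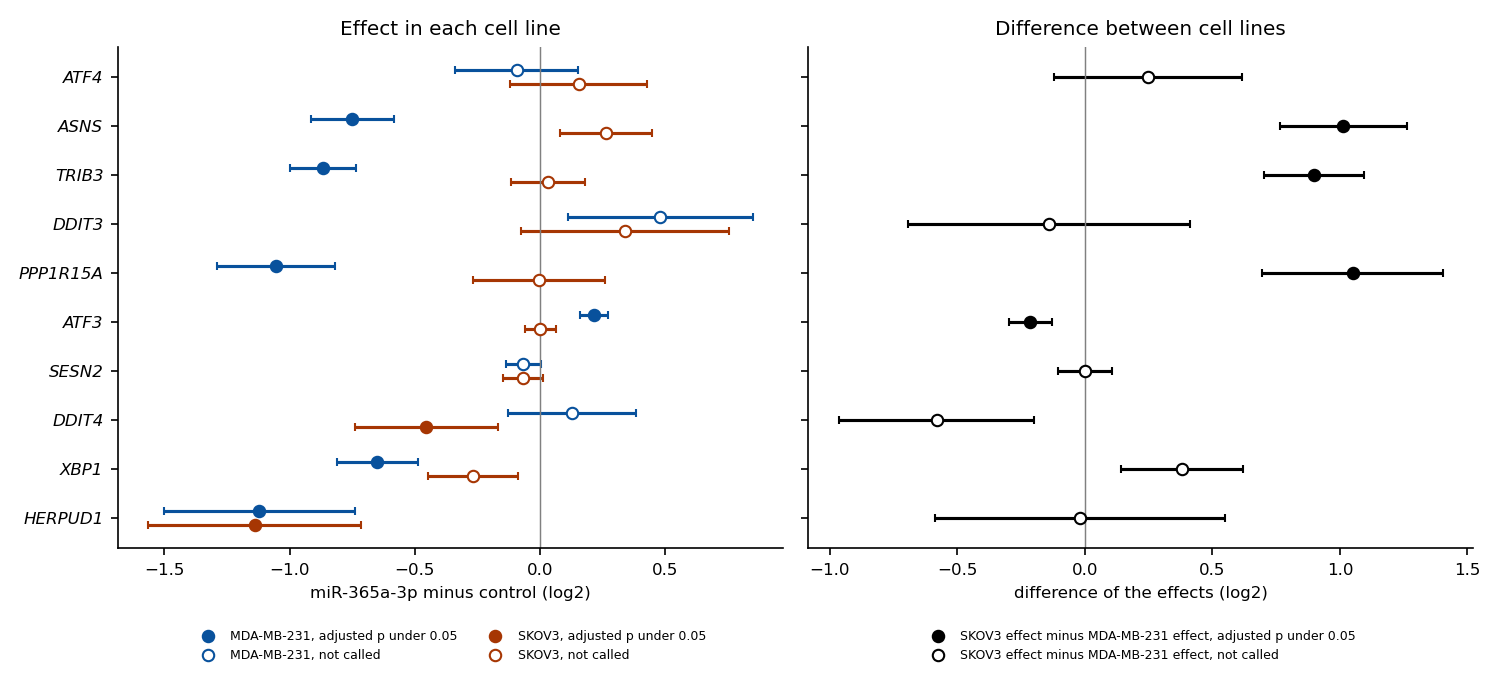
Left, the effect of the mimic (log2, horizontal axis) on each gene in MDA-MB-231 (blue) and SKOV3 (brown) cells with its 95% interval, and right, the SKOV3 effect minus the MDA-MB-231 effect. Filled points have an adjusted p under 0.05, and ASNS, TRIB3 and PPP1R15A stand near 1 in the right panel while HERPUD1 stands at -0.02.

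Across both lines a 2-sided exact permutation of treatment within lines was run on each member's mean effect, 10 tests over 200 arrangements each with no adjustment, where no p can be below 0.005. HERPUD1 and XBP1 reached it. The exact p was 0.02 for DDIT3, 0.025 for SESN2, 0.045 for ATF3 and 0.05 for PPP1R15A. TRIB3 gave 0.08, ASNS 0.16, DDIT4 0.32 and ATF4 0.78. The mean of DDIT3 was 0.41. On the deposited values, a comparison added after the data were seen, the mean of DDIT3 was 0.092 with an exact p of 0.415, and ATF3 gave 0.38. There TRIB3, HERPUD1 and XBP1 were at 0.005, PPP1R15A and SESN2 at 0.01 and ASNS at 0.065.

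The difference between the cell lines was called for 4 of 10 members, against 2.54% of all genes. Of the 8 members above 8 it was called for 3, against 4.01% of the genes of that class. With replicate number as a block within each line only TRIB3 kept its call. Without SKOV3 control replicate 1 or without replicate 2 the count was 2 of 10, ASNS and TRIB3. ASNS, TRIB3 and PPP1R15A had the more negative effect in MDA-MB-231 cells, and ATF3 the more positive one. With a control and a treated group in each line, that contrast shares its arrays with both effects above and adds no new samples.

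The control groups were set against each other to see where the members stood before the mimic. In SKOV3 controls 5 of 10 members were lower than in MDA-MB-231 controls and 0 higher, where 7.76% of all genes were lower and 8.34% higher. All 5 have a mean above 8, and of the genes in that class 20.0% were lower and 19.2% higher. ASNS was lower by 4.44-fold (log2 difference -2.15, limma adjusted p = 7.4e-07), PPP1R15A by 3.48-fold (-1.80, adjusted p = 1.5e-05), TRIB3 by 3.21-fold (-1.68, adjusted p = 7.67e-07), ATF4 by 2.26-fold (-1.18, adjusted p = 0.000206) and DDIT4 by 1.54-fold (-0.62, adjusted p = 0.00923). The DDIT4 call was lost without SKOV3 control replicate 2 (adjusted p = 0.0925). HERPUD1 (0.07, interval -0.36 to 0.49) and XBP1 (-0.10, interval -0.28 to 0.08) passed no test. The 3 members whose effects differed with a positive sign are thus also the 3 with the largest difference between controls, and both contrasts use the same control arrays. With the mimic, ASNS, TRIB3 and PPP1R15A in MDA-MB-231 cells (means 10.06, 8.73 and 8.86) were still above SKOV3 controls (means 8.66, 7.92 and 8.12).

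The pattern of ATF4 over the 11 arrays was most like that of DDX55 (Pearson r = 0.994), NFE2L3 (0.988), ANGPTL4 (0.987), DFNA5 (0.984) and MLKL (0.982), among the 6853 genes above 8. Of the members, ASNS (0.956), TRIB3 (0.895), DDIT4 (0.866) and PPP1R15A (0.850) followed it most closely, then ATF3 (0.628), DDIT3 (0.356) and SESN2 (0.345), whereas HERPUD1 (-0.013) and XBP1 (-0.094) did not. The arrays fall into 2 cell lines, so these values mostly order genes by the gap between the lines, and no test is given.

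Other genes of the same pathways were read from 7 lists with 92 genes, all of them measured. These lists too were chosen with earlier results of these data known. In MDA-MB-231 cells 35 fell and 12 rose (38.0% and 13.0%), and in SKOV3 cells 16 fell and 10 rose (17.4% and 10.9%). Of these, 14 fell and 6 rose in both lines. Among the 59 with a mean above 8, 44.1% fell and 11.9% rose in MDA-MB-231 cells, with 22.0% and 11.9% for SKOV3, beside 26.2% and 39.0%, and 15.3% and 23.4%, of all genes of that brightness. The counts of the single lists below include dim genes. Of all genes 11.7% fell and 14.4% rose in MDA-MB-231 cells, and 7.11% and 7.25% in SKOV3 cells. The lists differ in brightness, with 11 of the 22 ATF4 targets and 1 of the 6 paralogs above 8, so neither set of shares matches every list. The split depended on scale: on the deposited values 48 fell and 5 rose in MDA-MB-231 cells, and 26 and 3 in SKOV3 cells. After quantile normalization the median log2 fold change of the 92 genes was -0.11 in MDA-MB-231 and -0.012 in SKOV3 cells.

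Of the 15 genes of the eIF2 kinases and the eIF2 machinery, 7 fell and 2 rose in MDA-MB-231 cells (46.7% and 13.3%), and 4 fell and 3 rose in SKOV3 cells (26.7% and 20.0%). GCN1 (listed as GCN1L1), the activator of the amino acid sensor GCN2, fell in both lines, with -2.12 ± 0.22 (SE; limma adjusted p = 0.000235) in MDA-MB-231 and -1.79 ± 0.25 (adjusted p = 0.00196) in SKOV3 cells. In the same order of lines, GCN2 itself (EIF2AK4) fell with -1.08 and -1.53, and the heme-regulated kinase EIF2AK1 with -1.33 and -1.12. EIF2B3, a subunit of the exchange factor that phosphorylated eIF2 blocks, rose by 0.88 and 0.79, and by 0.57 in MDA-MB-231 cells on the deposited values. EIF2B4, another subunit, rose by 0.32 and 0.25, but on the deposited values its effect in MDA-MB-231 cells was -0.019, and its SKOV3 call was lost in 8 of 19 alternatives.

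Among 9 partners and related factors of ATF4, 4 fell and 3 rose in MDA-MB-231 cells (44.4% and 33.3%), and 3 fell and 0 rose in SKOV3 cells (33.3% fell). CREB1, which binds the CRE, fell with -1.08 and -1.41, and the C/EBP factor CEBPB with -1.25 and -0.86. The SKOV3 call of CEBPB (adjusted p = 0.0448) was lost in 10 of 19 alternatives. ATF5, a close relative of ATF4, fell with -0.45 and -0.53, and both calls were lost without some single arrays. CEBPD rose by 0.52 in MDA-MB-231 cells and gave -0.10 in SKOV3 cells, and the effects differed by -0.62 (limma adjusted p = 0.00658), lost in 2 of 18 alternatives.

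The 22 target enzymes and regulators of ATF4 beyond the members split as 9 fallen and 1 risen in MDA-MB-231 cells (40.9% and 4.55%), and 4 and 1 in SKOV3 cells (18.2% and 4.55%). PHGDH, the first enzyme of serine synthesis, fell with -0.87 ± 0.052 (SE; limma adjusted p = 1.57e-05) and -0.43 ± 0.059 (adjusted p = 0.00168), and the difference of 0.44 was called (adjusted p = 0.0244) but lost in 8 of 18 alternatives. TNFRSF10B, a death receptor induced by ER stress, fell with -1.16 and -0.73, and the proline enzyme ALDH18A1 with -0.61 and -0.85, with calls of ALDH18A1 lost in 5 and 4 of 19 alternatives. CBS, of cysteine synthesis, fell by 0.40 in SKOV3 cells and gave 0.06 in MDA-MB-231 cells, a difference of -0.45 (adjusted p = 0.0231) that was lost in 6 of 18 alternatives. Its MDA-MB-231 means, 7.35 in controls and 7.41 with the mimic, lay at the array medians, so a fall there could hardly be read. VLDLR fell by 0.52 in MDA-MB-231 cells and gave -0.17 in SKOV3 cells, a difference of 0.35 (adjusted p = 0.0338) that was lost in 11 of 18 alternatives. A fall of 0.52 from its SKOV3 control mean of 7.62 would likewise end below the array medians. PSAT1, of serine synthesis, was looked at after its values were seen: it fell by 1.01 in MDA-MB-231 cells and gave 0.03 in SKOV3 cells, and the difference of 1.04 was not called (adjusted p = 0.0542).

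Of 9 genes of the IRE1 and ATF6 arms, 3 fell and 3 rose in MDA-MB-231 cells (33.3% each way), and 1 fell and 2 rose in SKOV3 cells (11.1% and 22.2%). CREB3L2, an ER-anchored factor related to ATF6, fell with -1.33 and -1.25, while CREB3, of the same family, rose by 0.52 and 0.48, the SKOV3 call being lost on the deposited values (adjusted p = 0.0661). TMBIM6, an ER membrane protein that restrains cell death, was chosen after its values were seen: it fell by 1.51 in MDA-MB-231 cells and gave -0.83 in SKOV3 cells (adjusted p = 0.142). RTCB (listed as C22orf28), the ligase that joins the spliced ends of XBP1 mRNA, rose by 0.83 and 0.61, the SKOV3 call being lost without either SKOV3 control array. Of 16 chaperones and folding enzymes, 4 fell and 1 rose in MDA-MB-231 cells (25.0% and 6.25%), and 1 fell and 0 rose in SKOV3 cells (6.25% fell). These shares of falls lie close to or below those of all genes above 8, a class that holds 13 of the 16. The disulfide isomerase P4HB fell with -0.69 and -0.52, and its SKOV3 call was lost in 4 of 19 alternatives. HSPA5 (BiP), the main ER chaperone, also chosen after its values were seen, fell by 0.76 in MDA-MB-231 cells (limma adjusted p = 0.0240) and gave -0.13 in SKOV3 cells (adjusted p = 0.852). DNAJB9, chosen in the same way, was the 1 gene of this list that rose in MDA-MB-231 cells, by 0.52 (adjusted p = 0.00931). It gave 0.44 in SKOV3 cells (adjusted p = 0.0538).

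Of 15 genes of ER-associated degradation, the process of HERPUD1, 6 fell and 2 rose in MDA-MB-231 cells, and 2 fell and 3 rose in SKOV3 cells (13.3% and 20.0%). In MDA-MB-231 cells 3 of the 9 with a mean above 8 fell (33.3%). FAF2, an ER-associated degradation factor also chosen after its values were seen, fell by 1.51 in MDA-MB-231 cells and gave -0.44 in SKOV3 cells (adjusted p = 0.562). SYVN1, the ubiquitin ligase whose complex holds HERPUD1, fell with -0.65 ± 0.081 (SE; limma adjusted p = 0.000517) and -0.70 ± 0.090 (adjusted p = 0.00129). DERL2, a channel component, rose by 0.90 and 0.63, and the lectin OS9 by 0.31 and 0.22. Both SKOV3 calls were lost in 13 of 19 alternatives, and the OS9 call in MDA-MB-231 cells on the deposited values (adjusted p = 0.369) and under median centring (0.161). EDEM3, a mannosidase, fell by 0.40 in MDA-MB-231 cells and gave 0.01 in SKOV3 cells, a difference of 0.41 (adjusted p = 0.0410) that was lost in 9 of 18 alternatives. A fall of 0.40 from its SKOV3 control mean of 7.51 would end below the array medians, so it could hardly be read there. Of 6 paralogs of the members, 2 fell and 0 rose in MDA-MB-231 cells, and 1 fell and 1 rose in SKOV3 cells. TRIB1, a paralog of TRIB3, fell with -1.06 and -0.83, and unlike TRIB3 it was called in both lines.

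**Figure D3:**
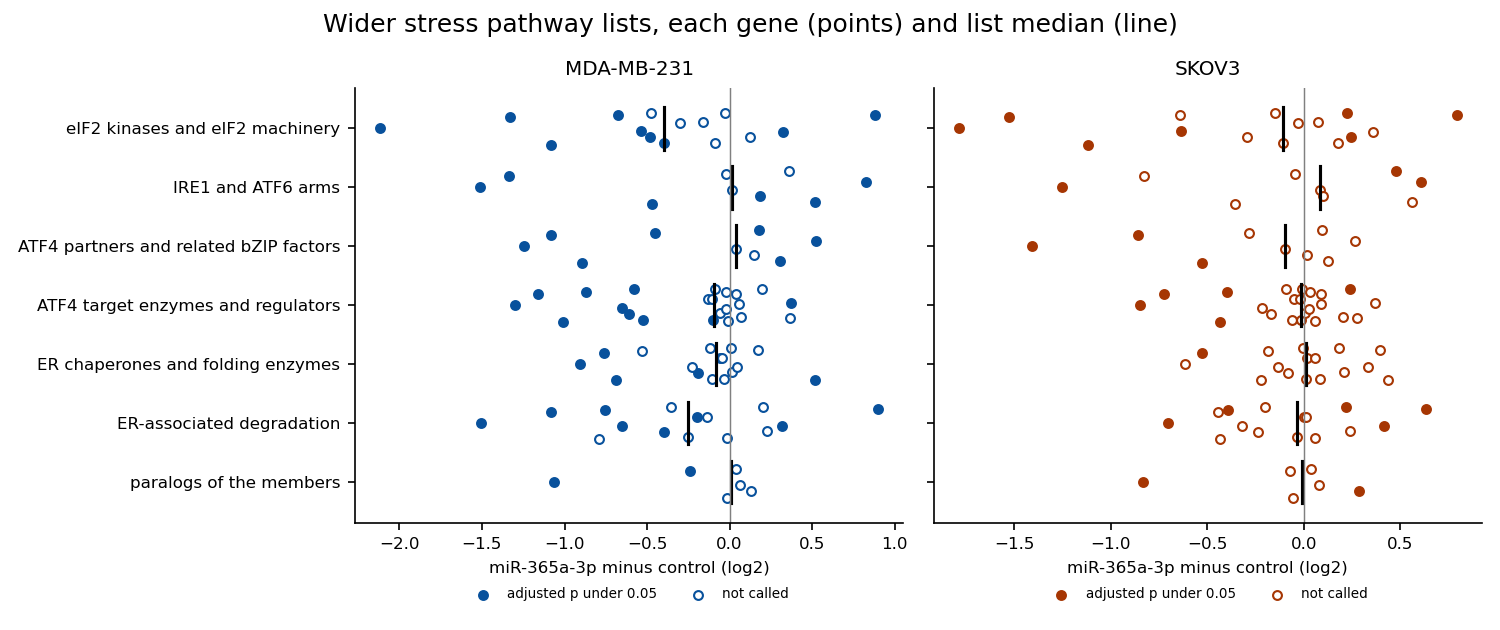
Effect of the mimic (log2, horizontal axis) on each of the 92 genes of the 7 wider lists (rows) in MDA-MB-231 and SKOV3 cells. Filled points have an adjusted p under 0.05, black lines are list medians, and GCN1, in the eIF2 list, lies furthest to the left at -2.12 and -1.79.

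The 5 falls in MDA-MB-231 cells and the fall of HERPUD1 in SKOV3 cells were called on quantile normalized, deposited, median centred and cyclic loess values alike. TRIB3 in MDA-MB-231 cells ranged from -1.16 to -0.80 over all alternatives, PPP1R15A from -1.31 to -0.96 and HERPUD1 from -1.43 to -0.99. For all genes the split of calls moved with the scale, from 4511 risen and 3663 fallen in MDA-MB-231 cells to 2275 and 5620 on the deposited values, and from 2270 and 2228 to 1201 and 4401 in SKOV3 cells. Median centring gave 3370 and 4879, and 1729 and 3630.

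**Figure D4:**
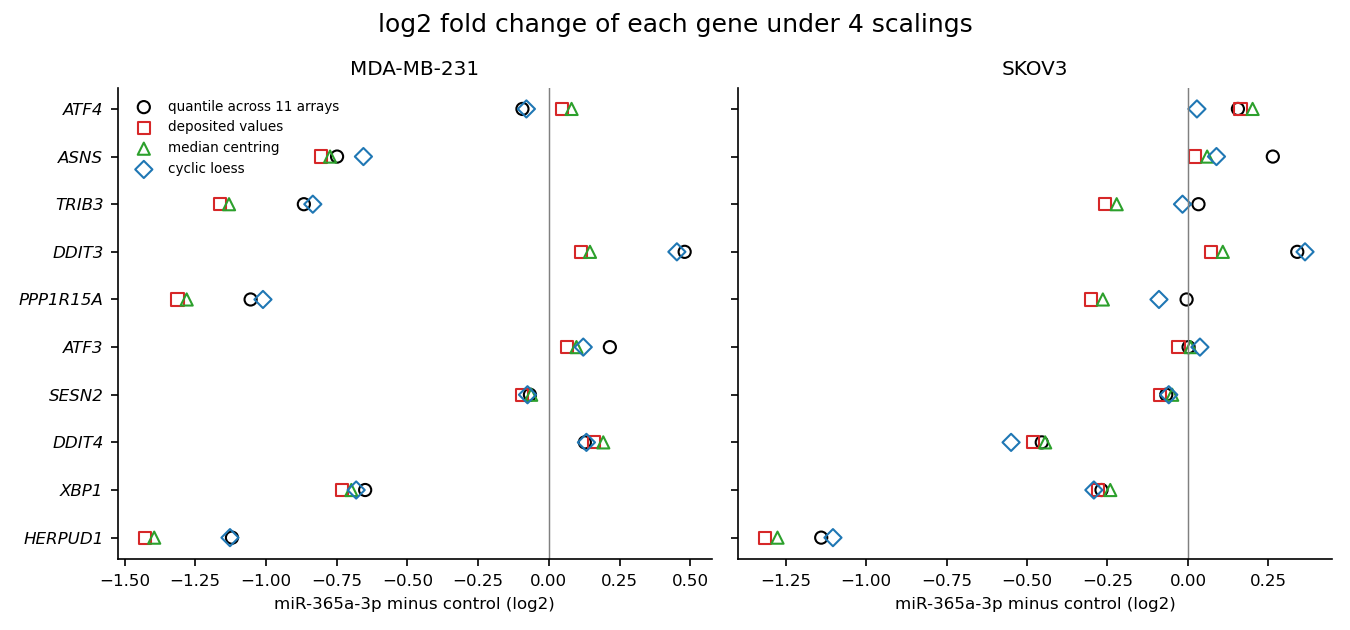
Log2 fold change (horizontal axis) of each gene with the mimic under 4 scalings of the same arrays, in MDA-MB-231 and SKOV3 cells. The marks of HERPUD1, XBP1, PPP1R15A, TRIB3 and ASNS stay left of 0 in MDA-MB-231 cells, whereas TRIB3 in SKOV3 cells lies on both sides of 0, from -0.26 to 0.03.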

How the data were processed

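RNA of 11 samples of MDA-MB-231 or SKOV3 cells, assigned to groups by the labels' cell line and treatment, was hybridised to HumanHT-12 v4 BeadChips as biotin-labelled cRNA. The authors normalized the data with lumi by quantiles and deposited log2 values, 1 for each gene symbol on each array. The transformation, background correction and combination of probes are not given in the sources used here, so log2 differences carry that limit, and array number sets the precision.

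The deposited columns did not share a distribution and were quantile normalized across the 11 arrays. A model with 4 group means was fitted to all 31325 genes with limma 3.58.1 in R 4.3.3 and moderated by eBayes, and p-values were adjusted by Benjamini-Hochberg at 0.05. Contrasts were the mimic minus control in each line, their difference (SKOV3 minus MDA-MB-231) and the controls. Single members were also permuted within lines with Python 3.11.15. The fit of the effect in each line was tested on simulated data in which 200 genes were raised alike in both lines. No simulated gene had a true difference between lines, so recovery of that contrast was not tested, nor was the normalization.

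The members and lists were chosen with earlier results of these data known. All members were named. Genes of the wider lists were named when called in both lines with the same sign, at most 3 each way per list by mean change, or when the difference was called. Outside this rule PSAT1, TMBIM6, HSPA5, FAF2 and DNAJB9 were named after their values were seen, and their calls under the alternatives are not given here. The lists were eIF2 kinases and machinery, IRE1 and ATF6 arms, ATF4 partners, ATF4 targets, ER chaperones, ER-associated degradation and paralogs. Likeness took the 5 genes with the highest correlation among those with a mean above 8.

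Alternatives were deposited values, median centring, cyclic loess, each comparison fitted alone, a replicate block, only genes above the median mean, an intensity trend with robust moderation, array weights, an adjusted p under 0.01 and each array left out. Target sites in mRNAs were not analysed here.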

Additional observations from a re-analysis of the deposited data

Results flagged for a closer look

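The effect of the mimic differed between the 2 cell lines for 4 members by the interaction term of the limma fit. As SKOV3 effect minus MDA-MB-231 effect, the value was 1.01 for ASNS, 0.90 for TRIB3 and 1.05 for PPP1R15A, and -0.21 for ATF3, whose signal lay near the array medians. TRIB3 kept its call in all 18 alternatives, with an adjusted p of at most 0.0337. In SKOV3 controls TRIB3 (mean 7.92) and PPP1R15A (8.12) lay so low that falls of 0.87 and 1.05 would end below the array medians. Whether this limited the falls that could be read in SKOV3 cells was not tested. Groups of 2 or 3 arrays are too small for the test for a single outlying value, and the values without each array are given among the alternatives.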

How the results depend on the processing

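Of 540 recomputed values of members, 486 kept their direction and their side of the threshold, 26 lost a call, 16 gained one and 12 changed sign. Differences between lines and between controls entered this count only where the main fit called them, so calls gained among the others are not in it. In SKOV3 cells the count of 2 called members became 1 under median centring, under the intensity trend with robust moderation and at an adjusted p under 0.01, and 4 with only genes above the median mean and with array weights, and it ranged from 1 to 2 with single arrays left out. The 4 called differences between lines became 1, TRIB3, with the replicate block, where ASNS had an adjusted p of 0.0669 and PPP1R15A of 0.108, and ranged from 2 to 5 with single arrays left out, with 2 without either SKOV3 control array. Signs that turned all belonged to values that were not called: ATF4 in MDA-MB-231 cells (0.048 on the deposited values, 0.080 under median centring), and in SKOV3 cells ATF3 (-0.029 on the deposited values, -0.0081 to 0.012 with arrays left out), TRIB3 (-0.26 on the deposited values, -0.22 under median centring, -0.017 under cyclic loess, -0.0057 to 0.070 with arrays left out) and PPP1R15A (0.0097 with array weights, -0.082 to 0.079 with arrays left out). Of the wider genes, EIF2B4 in MDA-MB-231 cells turned to -0.019 and OS9 in SKOV3 cells to -0.013 on the deposited values. The cause of these changes was not tested.

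Deviations of same-numbered arrays from their group means had correlations of -0.12, 0.04 and 0.23 in MDA-MB-231 and 0.04 and -0.07 in SKOV3 cells. Differently numbered arrays gave -0.47 to 0.35 over both lines. Deviations within a group of 2 or 3 arrays are tied to each other, so this check cannot decide whether the numbers pair the samples. Among the named wider genes the block also ended the SKOV3 call of EIF2AK1 (adjusted p = 0.0566). The block could not be used for the comparison of the control groups, since it lies within lines. SESN2 was removed by the filter on dim genes. The SKOV3 controls had 2 arrays, and leaving 1 out assumes that the other varies like the remaining groups.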
